A study of Mus musculus with 3 samples.

Results

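Prostaglandins are local lipid signals made from arachidonic acid, which phospholipases free from membranes. The cyclooxygenases, the constitutive Ptgs1 (COX-1) and the inducible Ptgs2 (COX-2), turn it into prostaglandin H2, and terminal synthases make the active products from there: Ptges gives prostaglandin E2, Ptgis gives prostacyclin, and Ptgds and Hpgds give prostaglandin D2. Hpgd, 15-hydroxyprostaglandin dehydrogenase, breaks prostaglandin E2 down, and Ptger2, Ptger3 and Ptger4 encode its EP2, EP3 and EP4 receptors. In skeletal muscle, prostaglandin E2 is known to act on muscle stem cells through EP4, and dehydrogenase activity limits its local supply. These 10 genes, found by their symbols among 32285 measured genes, were followed across the mononuclear cells of the mouse costal diaphragm, by cell class, by state of the fibro-adipogenic progenitors (FAPs, the Pdgfra-expressing stromal cells of muscle) and by library.

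The study asked how a long high-fat diet (HFD) reshapes the stromal cells of the respiratory muscle and what part thrombospondin 1 (Thbs1) has in it. Male C57Bl/6J (WT) mice were kept on a control diet (CD) or moved at 2 months of age to an HFD with 45% of its energy as lipid, in each case for 6 months. Thbs1-/- (KO) mice (B6.129S2-Thbs1tm1Hyn/J), which lack the gene in the whole body, received the same HFD. Each of the 3 groups was sequenced as 1 pooled library made from the diaphragms of 2 mice, digested with collagenase II, sorted free of DAPI-stained dead cells and processed with 10x Genomics 3' chemistry. No KO library on CD was analysed here.

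The WT CD library held 4132 barcodes and 34312860 unique molecular identifiers (UMIs, counted molecules), the WT HFD library 3774 barcodes and 31967976 UMIs, and the KO HFD library 4369 barcodes and 36478779 UMIs. Median depth was 7632.5, 8041.5 and 7554 UMIs per cell. Shared cell barcodes numbered 7 between WT CD and WT HFD, 7 between WT CD and KO HFD, and 2 between WT HFD and KO HFD. With 1 library per group no difference has a replicate check, so none was tested. Levels are in CPM, the UMIs of a gene per 1000000 UMIs summed over the cells of a class, and bracketed 95% intervals are exact and cover counting error only. Levels are compared between cells and libraries and not between genes. Thbs1 itself was at 136 CPM in WT CD, 202 CPM in WT HFD and 163 CPM in KO HFD over all cells. A 3' tag can lie outside the deleted part and then does not check the genotype, so the third library is known as KO only by its label.

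Cells were clustered without the prostaglandin genes, and clusters took the names of cell classes from fixed markers, so each class name stands for cells like that class. FAP-like cells made up 6643 of 12275 barcodes (2241 in WT CD, 1989 in WT HFD and 2413 in KO HFD). Their marker Dcn was at 16433 CPM in WT CD, and the markers of T cells, dendritic cells and muscle stem cells (MuSCs) in them were each below 1 CPM there. Doublet calls marked 5 FAPs. The other classes with at least 20 cells in every library were MuSCs, macrophages, endothelial, lymphatic, mesothelial, dendritic, B, and T or NK cells.

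The genes lie apart in the genome (GRCm38). Ptgs1 spans chr2:36230426-36252272 on the forward strand, Ptgs2 spans chr1:150100031-150108227 on the forward strand and Hpgd spans chr8:56294585-56321043 on the forward strand. On the reverse strand, Ptges lies at chr2:30889471-30929863, Ptgis at chr2:167191805-167240604, Ptgds at chr2:25466709-25470046, Hpgds at chr6:65117293-65144908 and Ptger4 at chr15:5206661-5244187. Ptger2 lies at chr14:44988195-45003820 and Ptger3 at chr3:157566892-157645888, both on the forward strand. Promoters of 3 of them are shown because the results turn on them: the cyclooxygenase pair, whose members were highest in different FAPs, and Hpgd, which differed most between the diets in FAPs. Each runs 5' to 3' from 250 bases before to 50 after the RefSeq start (GRCm38.p6, forward strand, at chr2:36230176-36230475, chr1:150099781-150100080 and chr8:56294302-56294601). Capitals mark matches, on either strand, to a TATA box (TATAAA), an E box (CACGTG), a cyclic AMP response element core (TGACG) or a GC box (GGGCGG).
Ptgs1: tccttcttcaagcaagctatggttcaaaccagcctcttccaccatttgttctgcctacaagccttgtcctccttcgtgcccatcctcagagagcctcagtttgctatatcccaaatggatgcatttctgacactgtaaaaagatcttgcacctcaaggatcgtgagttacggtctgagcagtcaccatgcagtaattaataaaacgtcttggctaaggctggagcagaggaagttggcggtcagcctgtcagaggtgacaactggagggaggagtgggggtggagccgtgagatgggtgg
Ptgs2: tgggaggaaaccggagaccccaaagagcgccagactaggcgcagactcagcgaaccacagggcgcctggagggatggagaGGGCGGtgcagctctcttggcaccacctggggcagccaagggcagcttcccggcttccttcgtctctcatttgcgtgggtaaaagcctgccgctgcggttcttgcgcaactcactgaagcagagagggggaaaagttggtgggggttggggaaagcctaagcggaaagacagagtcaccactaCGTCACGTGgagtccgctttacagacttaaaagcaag
Hpgd: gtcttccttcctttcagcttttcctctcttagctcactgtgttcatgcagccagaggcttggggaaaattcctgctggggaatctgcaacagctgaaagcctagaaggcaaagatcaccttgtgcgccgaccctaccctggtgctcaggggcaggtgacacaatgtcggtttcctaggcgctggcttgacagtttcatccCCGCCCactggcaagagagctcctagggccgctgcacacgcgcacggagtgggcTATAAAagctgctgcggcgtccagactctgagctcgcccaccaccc
The Ptgs1 window held none of the 4 motifs. The Ptgs2 window held a GC box 170 bases before the start, and just after the start an overlapping response element core and E box, at 14 and 17 bases. In the Hpgd window a GC box lay 50 bases before the start and a TATA box 5 bases after it. The annotation used for the gene coordinates starts Hpgd further downstream than RefSeq does. Among 32851 RefSeq promoter windows of this length, 13.6% held a TATA box, 7.15% an E box, 20.8% a response element core and 35.7% a GC box. These letters are a description of the windows and not sites shown to be bound. RefSeq windows were found for 9 of the 10 genes, all but Ptgis.

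The members were first placed by the class that held their UMIs, beside the 57.9% of all UMIs that came from FAPs. FAPs held 94.9% of all Ptges UMIs, 89.8% of Ptgs2, 86.8% of Ptgis and 69.2% of Ptgs1 over the 3 libraries, of which the Ptgs1 share was the nearest to their share of all UMIs. They also held 88.4% of the UMIs of the receptor Ptger3. Hpgd was divided between FAPs (46.5%) and macrophages (41.1%), which gave 12.3% of all UMIs. Macrophages also held 70.7% of Hpgds and 55.2% of Ptger2, and MuSCs held 60.7% of Ptgds. By these shares, the prostacyclin and prostaglandin E2 synthases lay mostly in FAPs and the prostaglandin D2 synthases mostly outside them. Among classes with at least 20 cells in every library, the one with the highest level was the same in all 3 libraries for 7 of the 10 genes, the exceptions being Ptgds, Ptger3 and Ptger4, and for 6 of the 10 the leading class did not overlap the next class over the libraries.

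**Figure D1:**
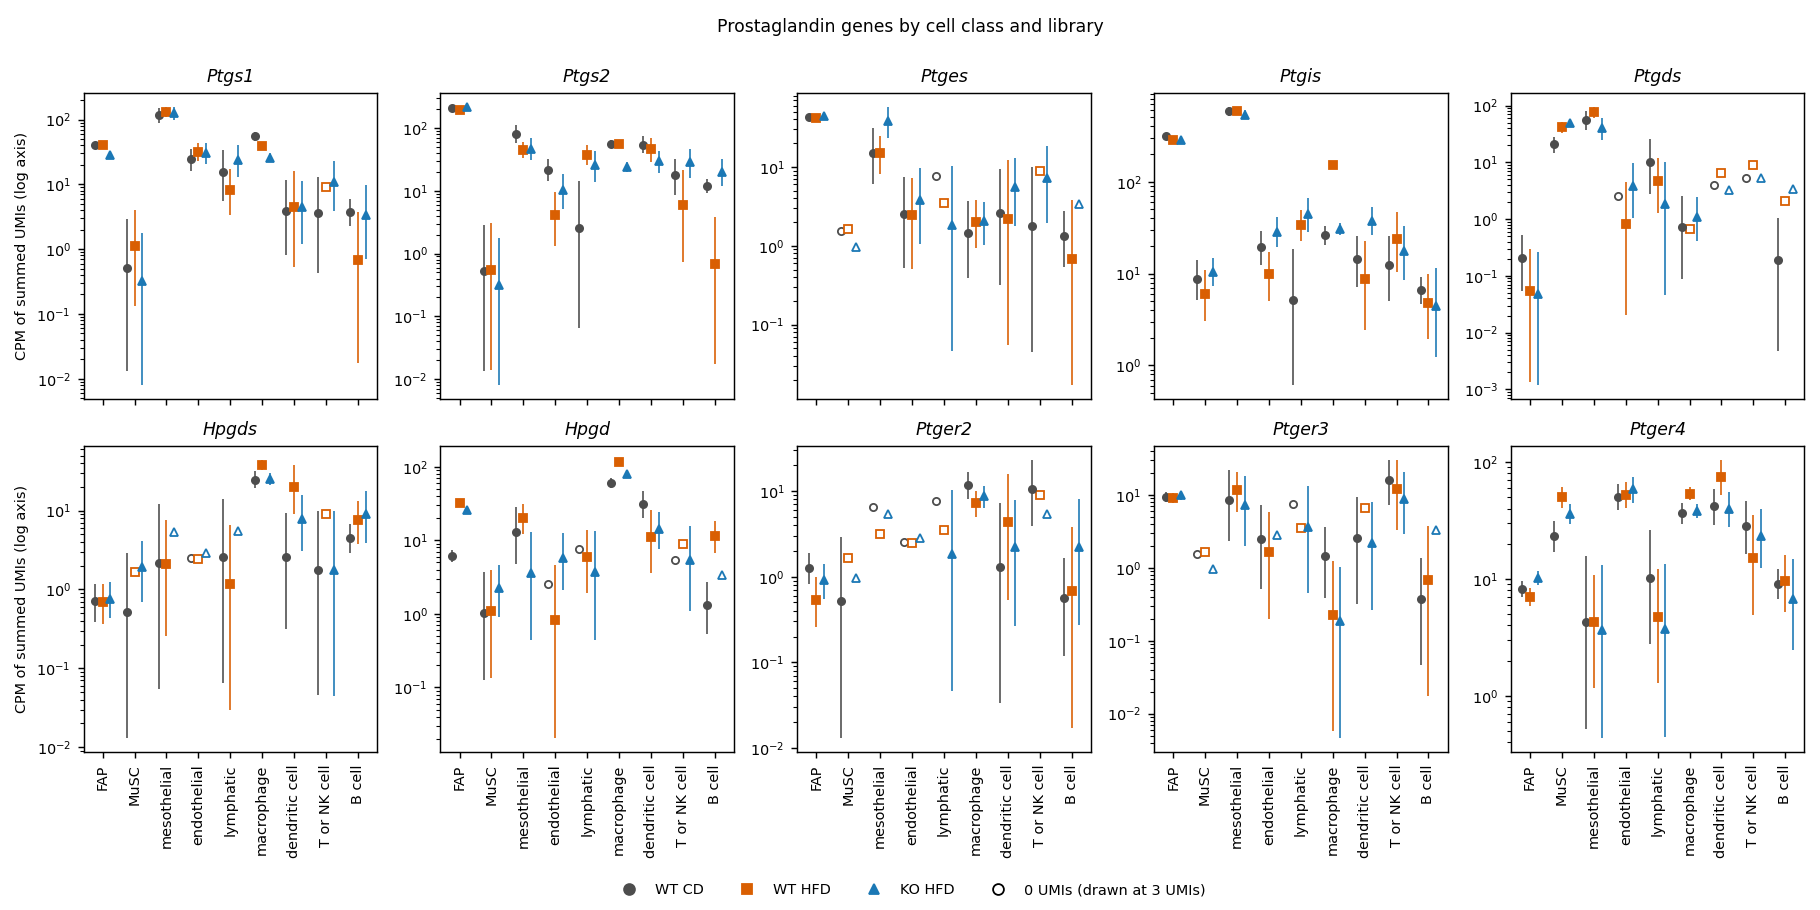
Level of each of the 10 prostaglandin genes (CPM of summed UMIs, log axis) in the cell classes on the x axis, 1 point per library, with bars for exact 95% Poisson intervals of counting error and open points for 0 UMIs drawn at 3 UMIs. Of the classes shown, Ptgs2 and Ptges were highest in FAPs in every library, Ptgs1 and Ptgis in mesothelial cells, and Hpgd, Hpgds and Ptger2 in macrophages.

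Ptgs2, the inducible cyclooxygenase, was at 209 CPM (95% interval 203 to 215) in WT CD FAPs, 193 CPM (187 to 199) in WT HFD FAPs and 215 CPM (209 to 222) in KO HFD FAPs. Among the classes with at least 20 cells in every library, mesothelial cells held 81.9, 45.6 and 47.1 CPM, and macrophages 56.2, 55.6 and 24.04 CPM. FAPs stood above both in every library. Of the smaller classes, neutrophils (13, 19 and 25 cells) were above FAPs in every library, at 1683, 928 and 1173 CPM, or 1158, 759 and 736 CPM without the richest cell of each library. MuSCs had 1 Ptgs2 UMI in each library, at 0.520, 0.550 and 0.319 CPM. A Ptgs2 UMI was found in 39.7%, 41.9% and 41.6% of FAPs at median depths of 8421, 9147 and 8371 UMIs, against 0.238%, 0.327% and 0.203% of MuSCs at median depths of 4418, 5285.5 and 5622 UMIs.

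Among the same classes Ptgs1, the constitutive cyclooxygenase, led in mesothelial cells, the lining of the diaphragm surface, at 116, 133 and 125 CPM in WT CD, WT HFD and KO HFD. In FAPs it was at 41.0 CPM (38.2 to 43.9), 41.0 CPM (38.1 to 44.0) and 28.1 CPM (25.8 to 30.4). Macrophages held 55.4, 39.2 and 25.9 CPM, and endothelial cells 24.4, 31.9 and 30.5 CPM. The 3 mesothelial values lay above every value of these other classes.

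Ptgis, prostacyclin synthase, was at 582 CPM (515 to 656), 594 CPM (546 to 646) and 538 CPM (479 to 603) in mesothelial cells and at 317 CPM (309 to 325), 287 CPM (279 to 295) and 282 CPM (274 to 289) in FAPs. These ranges did not overlap over the libraries. A Ptgis UMI was found in 80.0%, 82.5% and 79.2% of FAPs. Ptges, which makes prostaglandin E2 from the cyclooxygenase product, was at 42.7, 41.2 and 44.5 CPM in FAPs and at 15.1, 14.9 and 38.0 CPM in mesothelial cells, where it rested on 7, 14 and 21 UMIs. No Ptges UMI was found in MuSCs.

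The states within FAPs, 8 clusters called by their leading genes, used these enzymes unequally. Cyclooxygenases peaked in different states. Ptgs1 was highest in the Cmah/Krt80/Dact2 state, at 124, 133 and 106 CPM in WT CD, WT HFD and KO HFD, against 70.6, 41.3 and 33.5 CPM in the next state, Sult1e1/Smpd3/Plac8. It was among the lowest in the Iigp1/Adm/Nabp1 state, at 7.59, 2.58 and 2.63 CPM. Ptgs2 was highest in that same Iigp1/Adm/Nabp1 state, at 369, 433 and 371 CPM, against 308, 235 and 262 CPM in the Sult1e1/Smpd3/Plac8 state. The Gdf10/Cfb/Sfrp1 state, at 97.9, 97.8 and 98.6 CPM, was lowest by the mean over libraries, though the Pcp4l1/Cst6/Apod state was lower in WT HFD (95.2 CPM) and the Dio2/Fibin/Ccn2 state in KO HFD (81.8 CPM). After each cell was thinned to 3000 UMIs, 41.9%, 41.3% and 41.7% of cells of the Iigp1/Adm/Nabp1 state had a Ptgs2 UMI, against 17.5%, 20% and 15.6% in the Gdf10/Cfb/Sfrp1 state.

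Terminal synthases were highest in smaller states. Ptges was at 140, 116 and 143 CPM in the Pcp4l1/Cst6/Apod state (162 cells), against 65.9, 60.3 and 75.7 CPM in the next state, Moxd1/Aqp2/Cpne4 (154 cells). Its lowest levels, in the Fmod/Sfrp2/Kdr state, were 26.4, 29.3 and 27.7 CPM. Ptgis was highest in the Moxd1/Aqp2/Cpne4 state, at 825, 697 and 642 CPM, next in the Fmod/Sfrp2/Kdr state, at 431, 463 and 430 CPM, and lowest in the Pcp4l1/Cst6/Apod state, at 82.5, 119 and 72.7 CPM. In the order of states, the first and the second did not overlap over the 3 libraries for any of these 4 synthesis genes. With the states cut more coarsely or more finely, fewer of the 10 genes kept 1 leading state in all libraries (4 and 2, against 7).

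**Figure D2:**
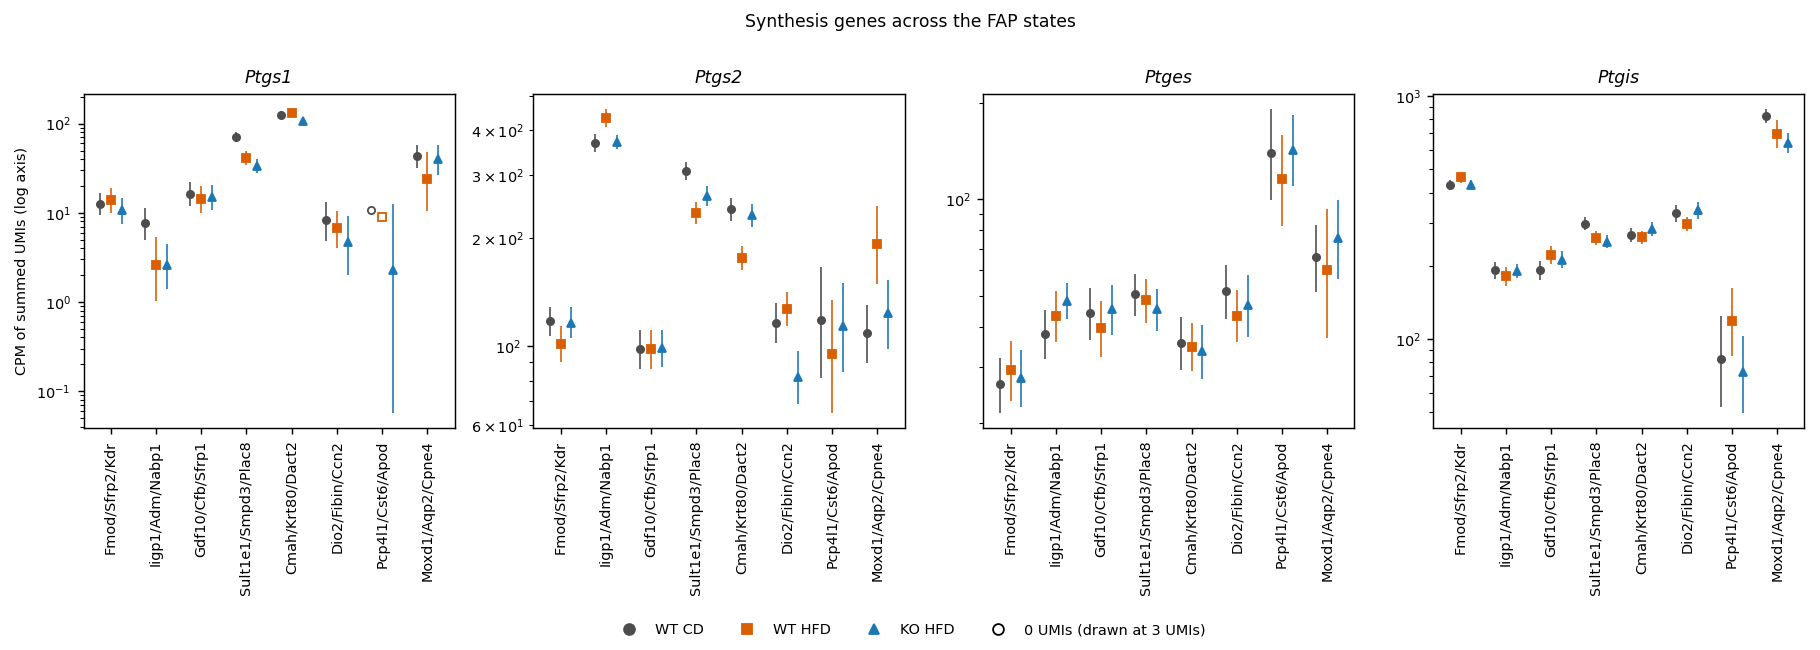
Levels of Ptgs1, Ptgs2, Ptges and Ptgis (CPM of summed UMIs, log axis) in the 8 FAP states named by their leading genes on the x axis, 1 point per library with exact 95% Poisson intervals. Ptgs1 led in the Cmah/Krt80/Dact2 state, Ptgs2 in Iigp1/Adm/Nabp1, Ptges in Pcp4l1/Cst6/Apod and Ptgis in Moxd1/Aqp2/Cpne4, in each of the 3 libraries.

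The FAP state with the highest Ptgs2 level was set beside 2 lists of genes that respond to acute stimuli, none of which was used for the clustering. Of 10 immediate early genes, 8 were highest in the Iigp1/Adm/Nabp1 state in all 3 libraries, as were 2 of 6 NF-kB response genes (Cxcl1 and Nfkbia), where 2.85% of 12730 genes with at least 50 UMIs in FAPs were. Egr2, a related gene, was among the 10 leading genes of the state, so the state was not defined apart from genes of this kind. Egr1, an immediate early transcription factor gene, was at 5382 CPM in WT CD, 4971 CPM in WT HFD and 5547 CPM in KO HFD in the Iigp1/Adm/Nabp1 state, against 1412, 1324 and 1358 CPM in the Gdf10/Cfb/Sfrp1 state. Tnfaip3, an NF-kB response gene, was not highest in that state in any library. The cells came from an enzymatic digestion, and the part of this response in the Ptgs2 level was not tested. Among single FAPs thinned to 3000 UMIs, Ptges was found in 9.64% of cells with a Ptgs2 UMI and 12.1% of cells without in WT CD, in 12.2% and 10.6% in WT HFD, and in 12.2% and 11.3% in KO HFD. The order of cells with and without Ptgs2 thus changed between libraries.

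Hpgd, the enzyme that inactivates prostaglandin E2, was the member that differed most between diets in FAPs. It was at 6.18 CPM (5.13 to 7.37) in WT CD, 32.03 CPM (29.5 to 34.7) in WT HFD and 25.8 CPM (23.7 to 28.0) in KO HFD, from 122, 600 and 542 UMIs. Both HFD libraries stood above the CD library with no overlap of the counting intervals. The WT HFD level was 5.19-fold that of WT CD (4.26 to 6.35), which was log2 2.37 and the fifth largest ratio upward among 12038 genes with at least 50 UMIs in the 2 libraries. In the library labelled KO HFD it was 0.805-fold that of WT HFD (0.715 to 0.906).

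The difference was not carried by a few cells. A UMI was found in 102 of 2241 FAPs in WT CD (4.55%), 372 of 1989 in WT HFD (18.7%) and 343 of 2413 in KO HFD (14.2%), and the single richest cell gave 4.10%, 2% and 2.03% of the UMIs. Thinned to 3000 UMIs, the shares were 2.02%, 8.55% and 7.60%. In MuSCs, a UMI was found in 0.475%, 0.654% and 1.02% of cells. The 5 macrophage markers in FAPs, summed, were at 10.4 CPM in WT CD, 12.5 CPM in WT HFD and 13.4 CPM in KO HFD, none of them at 0, with Lyz2 the most abundant at 4.35, 6.67 and 5.85 CPM. Summed adipocyte markers were at 0.202, 0.214 and 1.86 CPM. The part of such RNA in the Hpgd level was not tested.

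Hpgd was higher in WT HFD than in WT CD in each of the FAP states but Moxd1/Aqp2/Cpne4, which had too few UMIs for an order. In the Fmod/Sfrp2/Kdr state, a large one, it was at 12.4 CPM in WT CD, 47.6 CPM in WT HFD and 45.1 CPM in KO HFD, a diet ratio of log2 1.94 (1.46 to 2.44). In the Iigp1/Adm/Nabp1 state it was at 9.41, 48.4 and 39.4 CPM, a diet ratio of log2 2.36 (1.79 to 2.98). In the Gdf10/Cfb/Sfrp1 state it was at 6.63, 29.1 and 27.4 CPM. These states kept nearly the WT HFD level in the library labelled KO HFD, with log2 ratios of -0.08 (-0.42 to 0.26), -0.30 (-0.62 to 0.03) and -0.09 (-0.57 to 0.39).

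The ratio of KO HFD to WT HFD was lower in other states, in 2 of which its interval lay below 0. In the Cmah/Krt80/Dact2 state, that of the highest Ptgs1, Hpgd went from 2 UMIs in WT CD to 61 in WT HFD and 11 in KO HFD, or 0.649, 15.6 and 3.52 CPM, and the KO HFD ratio to WT HFD was log2 -2.15 (-3.22 to -1.21). In the Sult1e1/Smpd3/Plac8 state it was at 4.88, 28.6 and 15.2 CPM, with a ratio of log2 -0.91 (-1.41 to -0.43). The Dio2/Fibin/Ccn2 state had 1.97, 32.5 and 24.6 CPM, with a ratio of log2 -0.40 (-0.97 to 0.14). The class level averages over this spread. In the Pcp4l1/Cst6/Apod state there were 0, 9 and 0 UMIs, or 0, 26.8 and 0 CPM. WT HFD thus stood above the other libraries there, on 9 UMIs, and counts of 0 give no ratio. In the Moxd1/Aqp2/Cpne4 state 2, 3 and 3 UMIs were too few for an order. Whether the ratios differed between states was not tested.

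**Figure D3:**
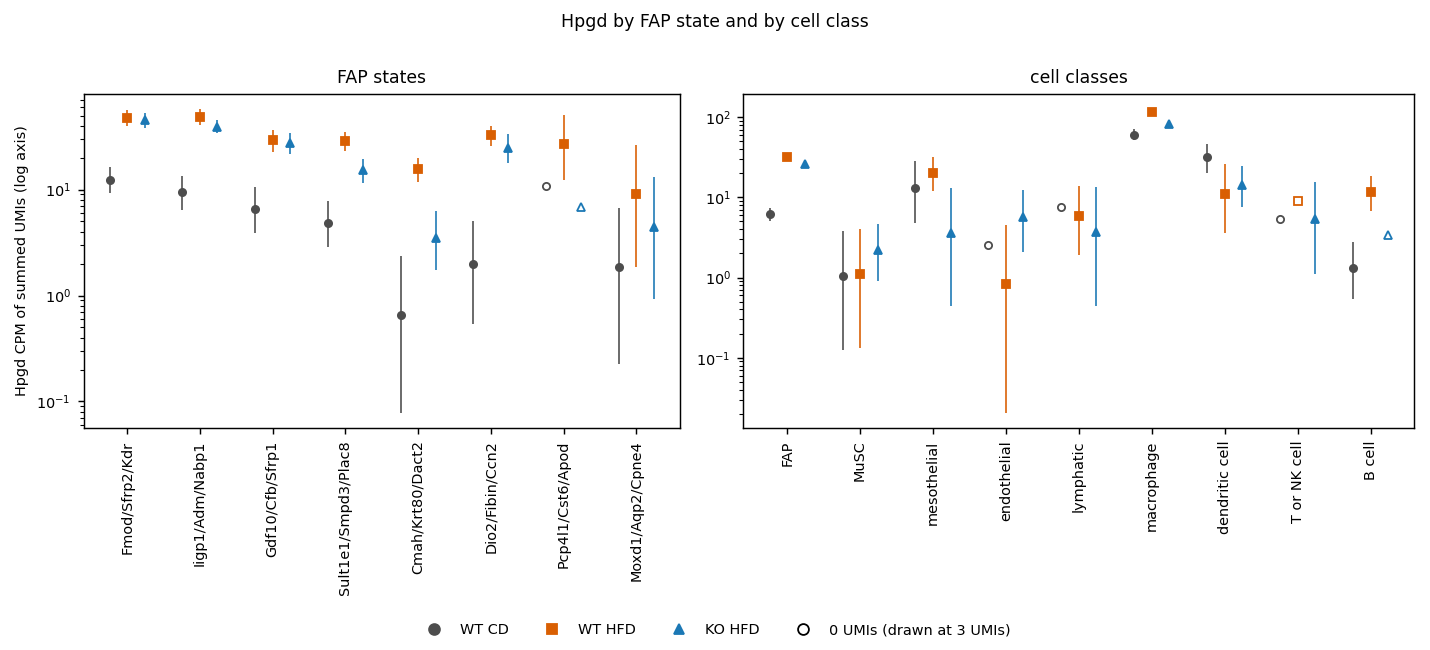
Hpgd level (CPM of summed UMIs, log axis) in the 8 FAP states (first panel) and in the cell classes (second panel), 1 point per library with exact 95% Poisson intervals and open points for 0 UMIs drawn at 3 UMIs. WT HFD lay above WT CD in each FAP state but the Moxd1/Aqp2/Cpne4 state, where too few UMIs gave no order. The Cmah/Krt80/Dact2 state was at 15.6 CPM in WT HFD and 3.52 CPM in KO HFD.

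With at least 50 UMIs in both libraries together, 7 of the 10 genes could be compared, and Hpgd alone was past 1.5-fold, where 4.44% of all 12038 such genes were past it in either direction. Log2 ratios of WT HFD to WT CD were -0.00 (-0.14 to 0.14) for Ptgs1, -0.12 (-0.18 to -0.05) for Ptgs2, -0.05 (-0.19 to 0.09) for Ptges and -0.14 (-0.20 to -0.09) for Ptgis. With cells clustered more finely (Leiden resolution 2), the Ptgs1 ratio was -0.62. A cluster of 796 cells led by Dact2 took no name there and was not among the FAPs. Ratios of the receptors were -0.04 (-0.34 to 0.27) for Ptger3 and -0.24 (-0.58 to 0.10) for Ptger4. The median of the 7 was -0.05, against 0.07 over all genes compared. In the main clustering, the largest of these departures over all FAPs among the synthesis genes, that of Ptgis, was 0.905-fold, beside 5.19-fold for Hpgd. Within states the Ptgs2 ratio went both ways. It was log2 0.23 (0.12 to 0.35) in Iigp1/Adm/Nabp1 and 0.83 (0.37 to 1.28) in Moxd1/Aqp2/Cpne4. In Cmah/Krt80/Dact2 it was -0.45 (-0.60 to -0.30) and in Sult1e1/Smpd3/Plac8 -0.39 (-0.53 to -0.26). Ptgds, Hpgds and Ptger2 had under 50 UMIs, with 4 and 1, 14 and 13, and 25 and 10 UMIs in WT CD and WT HFD. On those UMIs Ptger2 was at log2 -1.25 (-2.47 to -0.14).

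Between KO HFD and WT HFD, 0 of 7 members were past 1.5-fold in FAPs, where 3.59% of 12090 genes were. Ptgs1 came closest, at log2 -0.55 (-0.70 to -0.39), next Ptger4 at 0.53 (0.21 to 0.86), and the median of the 7 was 0.11, against -0.03 over all genes compared. That median was -0.05 with the FAP states weighted alike. It was -0.07 with cells clustered more finely, where some clusters with FAP as their best set took no name. The states differed in their share of the FAPs. The Cmah/Krt80/Dact2 state, the richest in Ptgs1, held 278 cells in WT CD, 354 in WT HFD and 301 in KO HFD, while the Iigp1/Adm/Nabp1 state, among the poorest, held 395, 294 and 596 cells. Within states the Ptgs1 ratio was log2 -0.33 (-0.53 to -0.13) in Cmah/Krt80/Dact2, -0.30 (-0.66 to 0.06) in Sult1e1/Smpd3/Plac8, -0.39 (-1.07 to 0.29) in Fmod/Sfrp2/Kdr and 0.07 (-0.60 to 0.76) in Gdf10/Cfb/Sfrp1. States with fewer Ptgs1 UMIs went both ways. Moxd1/Aqp2/Cpne4 was at 0.73 (-0.45 to 2.08), Iigp1/Adm/Nabp1 at 0.02 (-1.41 to 1.59) and Dio2/Fibin/Ccn2 at -0.52 (-1.93 to 0.75). With the 8 states weighted alike the Ptgs1 ratio was -0.14, and the part of the state make-up in the class ratio was not tested. Ptgs2 was at 0.16 (0.10 to 0.22) over all FAPs, and its states also went both ways. It was at -0.22 (-0.33 to -0.12) in Iigp1/Adm/Nabp1 and 0.40 (0.24 to 0.55) in Cmah/Krt80/Dact2.

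**Figure D4:**
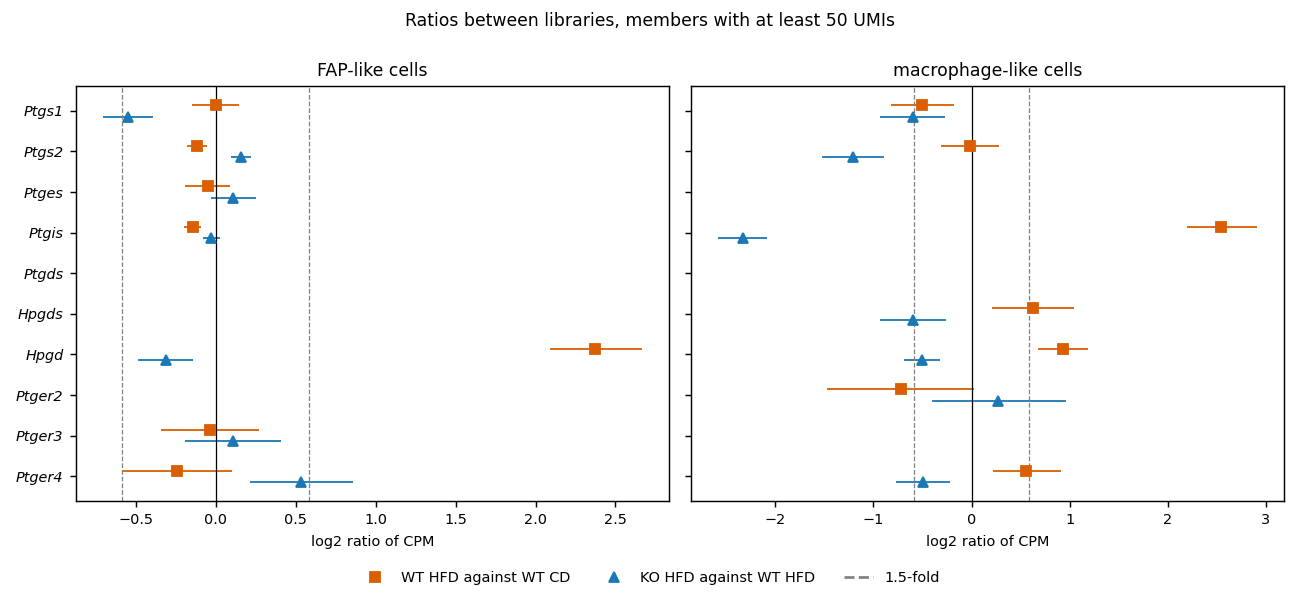
Log2 ratios of CPM, WT HFD to WT CD and KO HFD to WT HFD, for the members with at least 50 UMIs in FAP-like and macrophage-like cells, with exact 95% binomial intervals of counting error and dashed lines at 1.5-fold. In FAPs, Hpgd at 2.37 in the diet comparison was the 1 point past the line, and in macrophages Ptgis was far to the right (2.54) in one comparison and far to the left (-2.33) in the other.

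Among the classes with at least 20 cells in every library, Hpgd was highest in macrophages, at 60.5 CPM (51.7 to 70.3) in WT CD, 115 CPM (105 to 125) in WT HFD and 81.0 CPM (73.6 to 88.9) in KO HFD. The diet ratio was log2 0.93 (0.67 to 1.19) and the ratio of KO HFD to WT HFD -0.51 (-0.69 to -0.32). Hpgds, the haematopoietic synthase of prostaglandin D2, followed the same order of libraries in macrophages, at 24.8, 38.3 and 25.3 CPM. The few monocytes (17, 29 and 65 cells) held 235, 130 and 203 CPM of Hpgd, above macrophages in each library. MuSCs were at 1.04, 1.10 and 2.23 CPM, and blood endothelial cells at 0, 0.819 and 5.73 CPM.

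Macrophages fell into 3 clusters that divided the pathway among them. The Folr2/Ms4a7/Ccl12 cluster (124, 270 and 260 cells in WT CD, WT HFD and KO HFD) carried Hpgd at 153, 217 and 172 CPM and Hpgds at 65.9, 72.8 and 54.8 CPM. The Retnla/Lyz1/Mmp12 cluster (101, 82 and 168 cells) had Hpgd at 7.70, 22.9 and 9.56 CPM. Breakdown of prostaglandin E2 and synthesis of D2 thus shared a cluster at the transcript level. The Saa3/Cd5l/Serpinb2 cluster had few cells (7, 56 and 14), no Hpgds UMI and Hpgd at 0, 0 and 9.38 CPM, but it carried Ptgis at 161 CPM (83.2 to 281), 750 CPM (694 to 810) and 610 CPM (510 to 724). Of its cells, 55 of 56 in WT HFD had a Ptgis UMI. It also held Ptgs1 at 188, 104 and 98.5 CPM, above the other macrophage clusters in each library.

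In the macrophage Saa3/Cd5l/Serpinb2 cluster, the mesothelial markers Msln, Lrrn4 and Upk3b were all at 0 in each library. Its 5 summed macrophage markers were at 44559 CPM over the libraries, with Lyz2 the most abundant at 42239 CPM, and no cell of it was called a doublet. FAP markers, summed, were at 0, 517 and 9.38 CPM, of which Dcn gave 483 CPM in WT HFD. The part of RNA from other cells in its Ptgis level was not tested. Alox15, a lipoxygenase gene of cavity macrophages, was at 1451, 1963 and 2374 CPM in this cluster. In the Folr2/Ms4a7/Ccl12 cluster Alox15 was at 59.0, 0.904 and 0.422 CPM and Ptgis at 33.5, 9.49 and 2.11 CPM, so both were higher there in WT CD than in the HFD libraries.

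**Figure D5:**
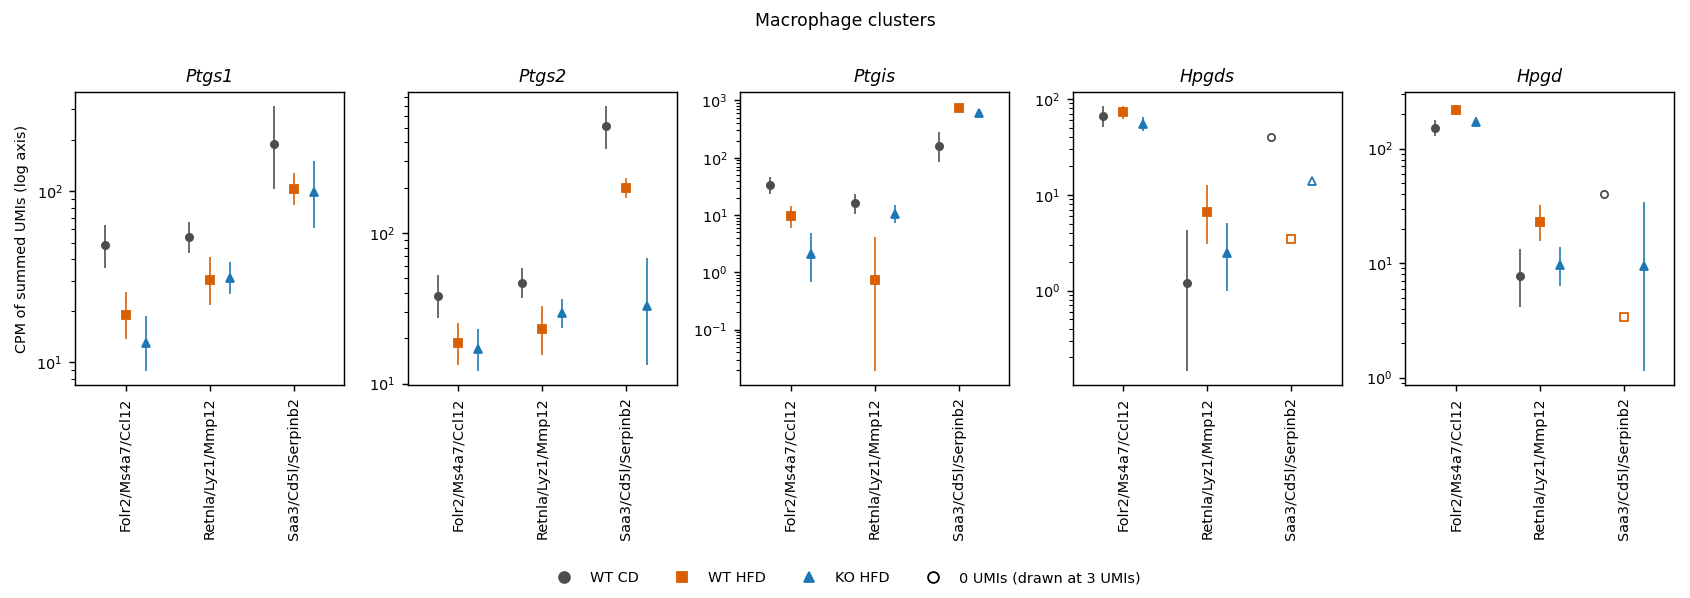
Prostaglandin genes (CPM of summed UMIs, log axis) in the 3 macrophage clusters on the x axis, named by leading genes, 1 point per library with exact 95% Poisson intervals and open points for 0 UMIs drawn at 3 UMIs. Hpgd and Hpgds were highest in the Folr2/Ms4a7/Ccl12 cluster, while Ptgis was highest in the Saa3/Cd5l/Serpinb2 cluster, at 750 CPM in WT HFD.

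Over all macrophages, of 7 members with at least 50 UMIs, 4 were past 1.5-fold between WT HFD and WT CD, where 13.6% of 7973 genes were. Ptgis (log2 2.54, 2.19 to 2.91), Hpgd and Hpgds (0.62, 0.21 to 1.05) were higher and Ptger2 (-0.72, -1.47 to 0.02) was lower. Between KO HFD and WT HFD, 4 of 7 were past it, all lower, where 9.88% of 8757 genes were: Ptgis (-2.33), Ptgs2 (-1.21), Ptgs1 (-0.60) and Hpgds (-0.59).

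Without the Saa3/Cd5l/Serpinb2 cluster, the diet comparison had 6 of 7 past the fold, where 12.7% of 7572 genes were. Ptgis (-1.87), Ptgs1 (-1.15) and Ptgs2 (-1.11) were then lower in WT HFD than in WT CD, and Hpgd (1.21), Hpgds (0.90) and Ptger4 (0.66) were higher. In the KO HFD comparison 2 of 7 were past it, where 8.04% of 8423 genes were, namely Hpgds (-0.85) and Hpgd (-0.77), while Ptgis at 0.13 (-0.68 to 0.97), Ptgs2 at 0.23 (-0.20 to 0.67) and Ptgs1 at -0.02 (-0.44 to 0.40) had intervals that include 0. The Ptgis values rest on a few barcodes. Its 61 UMIs in WT CD came from 11 of 225 cells, 4 of them called doublets, and its 22 UMIs in WT HFD from 7 of 352 cells, of which 1 held 12 UMIs. With doublets left out as well, the Ptgis ratios were -2.89 (-4.43 to -1.62) and 1.54 (0.22 to 3.11), from 34, 6 and 26 UMIs in WT CD, WT HFD and KO HFD. The ratios that remain still sum over a changing balance of the other clusters, since the Hpgd-rich Folr2/Ms4a7/Ccl12 cluster held 124, 270 and 260 cells and the Retnla/Lyz1/Mmp12 cluster 101, 82 and 168. Within the Folr2/Ms4a7/Ccl12 cluster alone, the diet ratios were smaller, at log2 0.51 (0.24 to 0.78) for Hpgd and 0.14 (-0.28 to 0.58) for Hpgds. Its ratios of KO HFD to WT HFD were -0.33 (-0.52 to -0.14) and -0.41 (-0.75 to -0.07). Within the Retnla/Lyz1/Mmp12 cluster the diet ratios were larger instead, at log2 1.57 (0.60 to 2.63) for Hpgd and 2.49 (0.22 to 5.74) for Hpgds. The Hpgds ratio there came from 2 UMIs in WT CD and 9 in WT HFD. In that cluster the ratios of KO HFD to WT HFD were -1.26 (-2.06 to -0.47) and -1.42 (-3.08 to 0.17). The part of the cluster balance in the class ratios was not tested.

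In mesothelial cells (40, 86 and 51 cells) 4 members could be compared. Ptgs2, at 81.9, 45.6 and 47.1 CPM, was the 1 gene past the fold between the diets (log2 -0.84, -1.51 to -0.18), where 13.9% of 3926 genes were past it. Ptgds, at 56.1, 76.4 and 39.9 CPM, was the 1 past it between KO HFD and WT HFD (log2 -0.94, -1.70 to -0.23), where 10.6% of 4156 genes were. The high Ptgs1 and Ptgis of this class were within 1.5-fold in both comparisons.

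Ptgds, the lipocalin-type synthase of prostaglandin D2, was shared between mesothelial cells and MuSCs and was almost absent from FAPs, at 0.202, 0.0534 and 0.0476 CPM. In MuSCs it was at 20.8 CPM (14.9 to 28.3) in WT CD, 41.8 CPM (33.0 to 52.4) in WT HFD and 49.1 CPM (41.7 to 57.5) in KO HFD. Both HFD libraries lay above the CD library, with a diet ratio of log2 1.01 (0.44 to 1.60). Of all 5824 genes compared in MuSCs between the diets, 18.7% were past 1.5-fold, 869 higher and 219 lower in WT HFD, with a median of log2 0.18. Between KO HFD and WT HFD, Ptgds was within 1.5-fold, where 8.05% of 6818 genes were past it. The 421, 306 and 492 MuSCs had median depths of 4418, 5285.5 and 5622 UMIs, in the same order as Ptgds. At clustering resolution 2, MuSCs formed a cluster led by Myf5 (285, 112 and 196 cells) and another led by Gal (130, 173 and 281 cells). The part of this balance in the MuSC ratios of Ptgds and of Ptger4, given next, was not tested.

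Ptger4, the EP4 receptor gene, was found in several classes. It was at 50.5, 52.4 and 58.2 CPM in endothelial cells, 41.9, 75.0 and 39.8 CPM in dendritic cells and 36.4, 53.6 and 38.1 CPM in macrophages, and these ranges overlapped. In MuSCs it was at 23.4, 50.1 and 36.1 CPM, with a diet ratio of log2 1.10 (0.57 to 1.65) beside that same background of 18.7%. FAPs were lower, at 8.25, 6.99 and 10.1 CPM. Their Pcp4l1/Cst6/Apod state had the highest level (21.5, 14.9 and 31.8 CPM) on 6, 5 and 14 UMIs, and other states led when the states were cut more coarsely or more finely.

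Ptger3 was at 9.42, 9.18 and 9.89 CPM in FAPs and had no UMI in MuSCs. Within FAPs it was highest in the Fmod/Sfrp2/Kdr state, at 16.5, 21.3 and 19.7 CPM, and lowest by mean in the Pcp4l1/Cst6/Apod state, with 0, 1 and 1 UMIs. T or NK cells, at 16.1, 12.0 and 8.92 CPM, rested on 9, 4 and 5 UMIs and overlapped FAPs. Ptger2 led in macrophages at 11.9, 7.20 and 8.69 CPM. Its FAP UMIs, 25, 10 and 19 in all, were densest in the Moxd1/Aqp2/Cpne4 state, at 10.2, 9.05 and 10.4 CPM. These levels rested on 11, 3 and 7 UMIs.

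The rest of the pathway was read from fixed gene lists. In FAPs, 4 of 6 genes of arachidonate release, 5 of 6 other prostanoid synthases, 3 of 6 other prostanoid receptors and 4 of 4 genes of transport and inactivation had enough UMIs, and 0 of each list were past 1.5-fold in either comparison, where 4.44% and 3.59% of all genes compared were. Of 3 comparable lipoxygenase genes, Alox12 was lower in WT HFD than in WT CD, with 33 against 65 UMIs (log2 -0.90), and 0 were past the fold in KO HFD. Pla2g4a, the cytosolic phospholipase that frees arachidonic acid, was at 48.0, 55.8 and 46.5 CPM in FAPs and 90.6, 70.1 and 85.1 CPM in mesothelial cells, and had 0, 0 and 2 UMIs in MuSCs. Slco2a1, the prostaglandin uptake transporter that brings substrate to the dehydrogenase, was at 9.52, 10.7 and 13.4 CPM in FAPs, against 106, 82.8 and 129 CPM in mesothelial and 81.6, 63.6 and 116 CPM in lymphatic cells. Uptake and breakdown were thus highest in different classes.

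Of the other receptors, Ptgfr, for prostaglandin F2 alpha, was the one most restricted to FAPs, at 39.2, 40.2 and 47.4 CPM there and at most 2.16 CPM in macrophages. Thromboxane synthase, Tbxas1, had the opposite placing, at 109, 87.1 and 95.05 CPM in macrophages and at most 0.0951 CPM in FAPs. Ptgdr2 had no UMI in any class. The 10 immediate early genes were 0 of 10 past 1.5-fold in FAPs in both comparisons, with a median log2 of -0.21 between diets and 0.32 between KO HFD and WT HFD. The 6 NF-kB response genes were 0 of 6 past it in both, with medians of 0.16 and 0.25.

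In macrophages, Alox15 was at 73.1 CPM in WT CD and 390 CPM in WT HFD (log2 2.42), and its ratio of KO HFD to WT HFD was -2.05. Those ratios stood beside 2.54 and -2.33 for Ptgis, and both genes were highest in the Saa3/Cd5l/Serpinb2 cluster. That cluster held 7, 56 and 14 cells in WT CD, WT HFD and KO HFD, and within it Alox15 was highest in KO HFD. Over all macrophages, Ltc4s, leukotriene C4 synthase, gave 0.92 and -1.06. Ptgir, the prostacyclin receptor gene, went the other way over the class, at -1.31 and 1.07. It was densest in the Retnla/Lyz1/Mmp12 cluster (101, 82 and 168 cells), at 24.3, 19.2 and 22.7 CPM. Prostacyclin synthase and its receptor were thus highest in different macrophages. The part of the cluster balance in these class ratios was not tested.

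The genes most like each of the 8 members with at least 500 UMIs, all but Ptgds and Ptger2, over 9 classes in 3 libraries (27 points, which share their libraries) were described by Pearson's r of log2(CPM + 1) among 10365 genes. Ptgs2 was most like Ecm1 (0.861), Fuca1 and Emilin2, and Ptges was most like Sema3c (0.907), Fgf18 and Vit. Ptgis was most like Mst1r (0.935), Adamtsl5 and Ildr2, and Ptgs1 like Orai3 (0.899), Ifnar2 and Tmed10. Hpgds was most like Adgre1 (0.927), F13a1 and C3ar1, of which Adgre1 was itself a macrophage marker used for naming. Hpgd was most like Mitf (0.862), Gfra2 and Ftl1, Ptger3 like Bmp7 (0.892), Eya2 and Sfrp2, and Ptger4 like Prex1 (0.805), Riok3 and Dot1l. None of the 10 members was among the 3 genes most like any of these 8.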

How the data were processed

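The authors deposited UMI counts per gene and cell, made with Cell Ranger (6.1.1 in the submitters' processing notes, 6.1.0 in the file header) on mm10, in one filtered matrix per library. The counts came as whole numbers and were not normalized. All 12275 barcodes were used. Here cells were clustered (scanpy 1.11.5, Leiden, leidenalg 0.10.2, resolution 1, and 0.6 within FAPs) without the 10 genes and the other listed pathway genes. Clusters were named from fixed markers when a set's mean log2 ratio was at least 1 and at least 3 of its markers were detected in 10% of cells. A cluster that met this stayed unnamed where its median depth was below its libraries' median divided by 3 and none of the set's markers was among its 10 leading genes, as held for 250 cells scoring highest for mast cells. The 1158 cells of the Sfrp2/Avpr1a/Col8a2 cluster scored highest for tenocytes with too few detected markers and took their next best set, FAP. Doublets were called but kept. UMIs were summed per class and library and given as CPM, with exact Poisson intervals, exact binomial intervals for ratios and exact Clopper-Pearson intervals for shares, at 95%. A count of 0 allows up to 3 UMIs. The interval calculation was checked on simulated counts. Past the fold means at least 1.5-fold among genes with 50 UMIs in both libraries together. Shares of cells were also given after thinning to 3000 UMIs. Named genes were the 10 members, the listed pathway genes, class markers, 3 leading genes per cluster and the 3 genes most like each member with at least 500 UMIs. TMM factors came from edgeR 4.0.16. The members and lists were chosen with earlier results of these data known. Promoter windows came from RefSeq and gene positions from the GRCm38 annotation.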

Additional observations from a re-analysis of the deposited data

Results flagged for a closer look

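Ratios of Ptgis and Ptger4 had opposite signs between macrophage clusters when WT HFD was set against WT CD. For Ptgis the log2 ratio was 2.22 (1.41 to 3.18) in the Saa3/Cd5l/Serpinb2 cluster (12 UMIs in 7 cells of WT CD, 659 UMIs in 56 cells of WT HFD) and -1.82 (-2.68 to -0.99) in the Folr2/Ms4a7/Ccl12 cluster (34 and 21 UMIs). For Ptger4 it was -1.10 (-2.20 to 0.20) in the Saa3/Cd5l/Serpinb2 cluster (8 and 44 UMIs) and 0.65 (-0.02 to 1.33) in the Retnla/Lyz1/Mmp12 cluster (35 and 44 UMIs), and both intervals include 0. With 1 library per group, neither difference between clusters was tested, and the WT CD side of the Saa3/Cd5l/Serpinb2 cluster rested on 7 cells.

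Hpgds was found at 24.04 CPM in the cells that took no class name, which entered none of the comparisons. At a finer clustering (Leiden resolution 2), 25 cells of median depth 1041 UMIs took the mast cell name, with Cma1 at 33565 CPM, and had 18 Hpgds UMIs, or 471 CPM (95% interval 279 to 744). By library, the 6, 10 and 9 such cells of WT CD, WT HFD and KO HFD had 5, 4 and 9 Hpgds UMIs. Ptgs1, Ptgs2 and Hpgd had no UMI in them, which at this depth does not show that they were absent.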

How the results depend on the processing

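Hpgd in FAPs stayed past 1.5-fold higher in WT HFD than in WT CD under each of the 10 alternatives run for its ratio (per-cell gating, doublets removed, a quality filter, TMM scaling, median-ratio size factors, FAP states weighted alike, thinning, clustering at resolution 0.5 or 2, and the strict reading of the naming rule), with log2 ratios from 2.25 with thinning to 2.75 with the strict naming. Its ratio of KO HFD to WT HFD ran from -0.57 with the states weighted alike to -0.28 with TMM scaling. The strict naming, which leaves the Sfrp2/Avpr1a/Col8a2 cluster out of the FAPs, and the macrophages without the Saa3/Cd5l/Serpinb2 cluster, with and without doublets, were chosen after seeing the data.

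The count of FAP members past the fold between the diets was 2 at clustering resolution 2 (Hpgd, and Ptgs1 at -0.62) and 3 with no UMI minimum, against 1, where 4.83% and 17.6% of all genes were past it. Between KO HFD and WT HFD it was 1 with per-cell gating (Ptgs1 at -0.64), 1 at resolution 2 (Ptger4 at 0.61), 1 with no UMI minimum, 1 with the strict naming (Ptger4 at 0.59) and 2 at the smaller of the other folds tried, against 0, where 3.77%, 3.46%, 16.6%, 3.52% and 12.8% of all genes were. Members with 1 leading FAP state in all libraries numbered 4 at a state resolution of 0.3 and 2 at a resolution of 1, against 7. In macrophages without the Saa3/Cd5l/Serpinb2 cluster, 2 members were past the fold between KO HFD and WT HFD, against 4, and Ptgis took the other sign in both comparisons (-1.87 between diets and 0.13, -0.68 to 0.97, between KO HFD and WT HFD), as did Ptgs2 between KO HFD and WT HFD (0.23, -0.20 to 0.67), the last 2 with intervals that include 0. With doublets left out as well, 2 members were past the fold between KO HFD and WT HFD, and these ratios were -2.89, 1.54 and 0.50. Ptgis then had under 50 UMIs in either comparison and was not among the members counted. The FAP median of the members between the diets was 0.04 with thinning, against -0.05, and that between KO HFD and WT HFD was -0.05 with the states weighted alike and -0.07 at resolution 2, against 0.11. At resolution 2, clusters of 796, 423, 291 and 187 cells had FAP as their best set but scored below 1. They took no name, so the FAPs compared at that resolution were without them. The largest was led by Dact2, Sbsn and Stmn4, and Dact2 also leads the Cmah/Krt80/Dact2 state, the richest in Ptgs1. The cause of the changes above was not tested, apart from the UMI minimum and the fold, which change which genes are counted. No paired analysis was possible because each group had 1 library. Levels under about 3 UMIs per class and library could not be told from 0.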

Other observations

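Neutrophil-like cells, too few for the class comparisons (13, 19 and 25 cells in WT CD, WT HFD and KO HFD), had the highest Ptgs2 level of any named class. It was at 1683 CPM (95% interval 1237 to 2239) in WT CD, 928 CPM (647 to 1291) in WT HFD and 1173 CPM (911 to 1488) in KO HFD, from 47, 35 and 68 UMIs. The richest cell of each library held 17, 8 and 27 of these, and without it the levels were 1158, 759 and 736 CPM. A Ptgs2 UMI was found in 8 of 13, 11 of 19 and 12 of 25 of these cells, at median depths of 2279, 1854 and 2004 UMIs.

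Ptgs2 in B cells rested on a few barcodes. WT CD held 64 UMIs in 11 of 438 B cells, of which 24 were in 1 barcode, and 5 of the 11 barcodes were called doublets. WT HFD held 1 UMI in 163 cells and KO HFD 18 UMIs in 3 of 104 cells. Ptgs2 in the Saa3/Cd5l/Serpinb2 macrophage cluster of WT CD was likewise 38 UMIs in 1 cell.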
